A study of Mus musculus with 16 samples.

Results

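Reprogramming of a somatic cell is held back by cell cycle inhibitors and the p53 pathway, and 9 genes that encode or regulate them were followed here in mouse induced pluripotent stem cells (iPSCs): Cdkn2a, Cdkn2b, Cdkn2c, Cdkn1a, Cdkn1b, Trp53, Mdm2, Rb1 and Ccnd1. They were taken by symbol from the gene rows of both deposited tables, and all 9 were found among 43984 genes of the histone table and 55471 genes of the methylation table. No measured value was used to choose them, although earlier results of these data were known at that point. The question put to them was whether their start sites or gene bodies carried different marks in iPSCs made from kidney proximal tubule cells (PTC) and in iPSCs made from tail tip fibroblasts (TTF).

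The cyclin-dependent kinase inhibitors block the kinases that drive a cell out of G1. Inhibitors of the INK4 family, encoded by Cdkn2a, Cdkn2b and Cdkn2c, bind the kinases that partner D-type cyclins, while those of the CIP/KIP family, encoded by Cdkn1a and Cdkn1b, act on cyclin E and cyclin A complexes. Cyclin D1, encoded by Ccnd1, activates the former kinases, which phosphorylate the retinoblastoma protein encoded by Rb1 and so release E2F transcription factors. Trp53 encodes p53, which turns on Cdkn1a after DNA damage or oncogene stress, and Mdm2 encodes the ubiquitin ligase that p53 induces and that degrades p53. Cdkn2a also encodes, from a separate first exon, the ARF protein that holds Mdm2 in check. Loss of Cdkn2a, Cdkn1a or Trp53 is known to raise reprogramming efficiency, and pluripotent cells run a short G1 phase.

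All 4 lines came from mice that carried 4 alleles, SLC34a1-GCE and tdTomato to label tubule cells and rtTAROSA (neo-in) with OKMS-250 to reprogram them, in which doxycycline induces Oct4, Klf4, c-Myc and Sox2 from a transgene. In the PTC lines, PTC11 and PTC12, tamoxifen had switched on a Cre driven by the SLC34a1 promoter, and tubule cells were sorted for tdTomato and GFP before doxycycline was given. In the TTF lines, TTF1 and TTF4, Cre was instead brought in on an episomal plasmid. Each line was 1 clone that no longer needed doxycycline, kept at low passage with LIF on mitomycin C-treated mouse embryonic fibroblast feeders, and the 2 lines of an origin are its replicates. The tables hold 1 library per line for each of H3K4me3, H3K36me3 and CpG methylation, although the methods describe ChIP in duplicate. The parent tubule cells and fibroblasts were not analysed here, so that the values describe the iPSC state and not its change.

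ChIP-seq enriches DNA wrapped around a modified histone, and the deposited values are reads in peaks per kilobase and library size (RPKM) after subtraction of input, averaged from 2000 bp before to 3000 bp after the gene start for H3K4me3, a mark of active starts, and over the gene body for H3K36me3, a mark of transcribed bodies. CpG methylation is the fraction of CpGs called methylated on nanopore reads within 1000 bp of the start. Reads and coverage are not in the tables, so depth per value is unknown and precision rests on the spread between lines. The lines differed as wholes. The median gene had an H3K36me3 value of 1.60 RPKM in PTC11 and 1.18 in TTF1 but 3.88 in PTC12 and 4.01 in TTF4, and TTF4 was the most methylated line, with a median fraction of 0.770 against 0.374 to 0.539 in the others. Genes that mark pluripotent cells had an H3K4me3 value for 9 to 11 of 12 in a line, against 2 to 6 of 10 fibroblast and feeder markers and 2 to 5 of 10 proximal tubule markers. The part of feeder DNA in any value below was not tested.

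The gene start that each table uses decides what it measured at Cdkn1a and Cdkn2a. Cdkn1a (ENSMUSG00000023067) lies on the forward strand at chr17:29090979-29100722 of mm10, and its methylation window is centred on 29090976, the start of an upstream transcript. The start shared by 2 other coding transcripts is at 29093769, 2793 bp downstream, outside the methylation window but inside the H3K4me3 window. Around the upstream start there were 17 CpGs within 1000 bp, and around the downstream start 106. Cdkn2a (ENSMUSG00000044303) lies on the reverse strand at chr4:89274473-89294653, and both tables use 89294653, the start of the transcript for ARF. The start of the transcript for the INK4a inhibitor is at 89282192, 12461 bp downstream, outside both windows, so no value below describes it.

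The 250 bases before the RefSeq starts are shown because they differ in CpG content, which goes with how methylated a start is. They are RefSeq promoter sequences on GRCm38.p6, the assembly that mm10 names, printed 5′ to 3′ on the strand of the gene with every CpG in capitals. Of the 9 genes, 7 had such an entry. The RefSeq ARF start lies 34 bp downstream of the deposited one, so the end of that stretch runs past the deposited start.
Cdkn1a upstream start, chr17:29090729-29090978, forward strand: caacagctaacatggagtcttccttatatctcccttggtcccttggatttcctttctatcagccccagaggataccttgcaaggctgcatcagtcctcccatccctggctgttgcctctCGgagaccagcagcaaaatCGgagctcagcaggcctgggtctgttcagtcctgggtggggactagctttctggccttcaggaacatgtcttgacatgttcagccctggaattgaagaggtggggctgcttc
Cdkn1a downstream start, chr17:29093519-29093768, forward strand: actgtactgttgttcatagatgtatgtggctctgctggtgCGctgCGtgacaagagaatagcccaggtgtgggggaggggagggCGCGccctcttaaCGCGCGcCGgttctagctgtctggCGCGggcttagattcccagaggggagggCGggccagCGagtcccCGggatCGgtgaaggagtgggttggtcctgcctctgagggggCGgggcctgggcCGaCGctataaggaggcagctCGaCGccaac
Cdkn2a ARF start, chr4:89294620-89294869, reverse strand: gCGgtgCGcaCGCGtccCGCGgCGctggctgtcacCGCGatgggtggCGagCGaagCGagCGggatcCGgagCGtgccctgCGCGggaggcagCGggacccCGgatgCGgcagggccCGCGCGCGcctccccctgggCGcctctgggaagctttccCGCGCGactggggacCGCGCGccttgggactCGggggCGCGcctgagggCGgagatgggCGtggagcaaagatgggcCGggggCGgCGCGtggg
Cdkn2a INK4a start, chr4:89282193-89282442, reverse strand: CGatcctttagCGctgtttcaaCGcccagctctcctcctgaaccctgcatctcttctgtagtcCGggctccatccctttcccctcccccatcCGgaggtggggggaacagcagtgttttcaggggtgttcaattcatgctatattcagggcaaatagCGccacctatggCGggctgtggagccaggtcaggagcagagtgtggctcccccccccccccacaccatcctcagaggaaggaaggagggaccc

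The stretch before the upstream Cdkn1a start held 2 CpGs and the stretch before the downstream start held 19. Among 32851 mouse promoters of the same length, 92.1% held at least 1 CG and the median was 6. The ARF stretch held 40, a number that 1.31% of promoters reached, and the INK4a stretch held 7. The GC box letters GGGCGG, read on both strands and free to overlap the CGs counted above, were present in 32.7% of promoters. They occurred 2 times before the downstream Cdkn1a start, 2 times before the ARF start, and not in the other 2 stretches. TATAAA, on both strands, was found in none of the 4 stretches and in 12.4% of promoters.

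**Figure D1:**
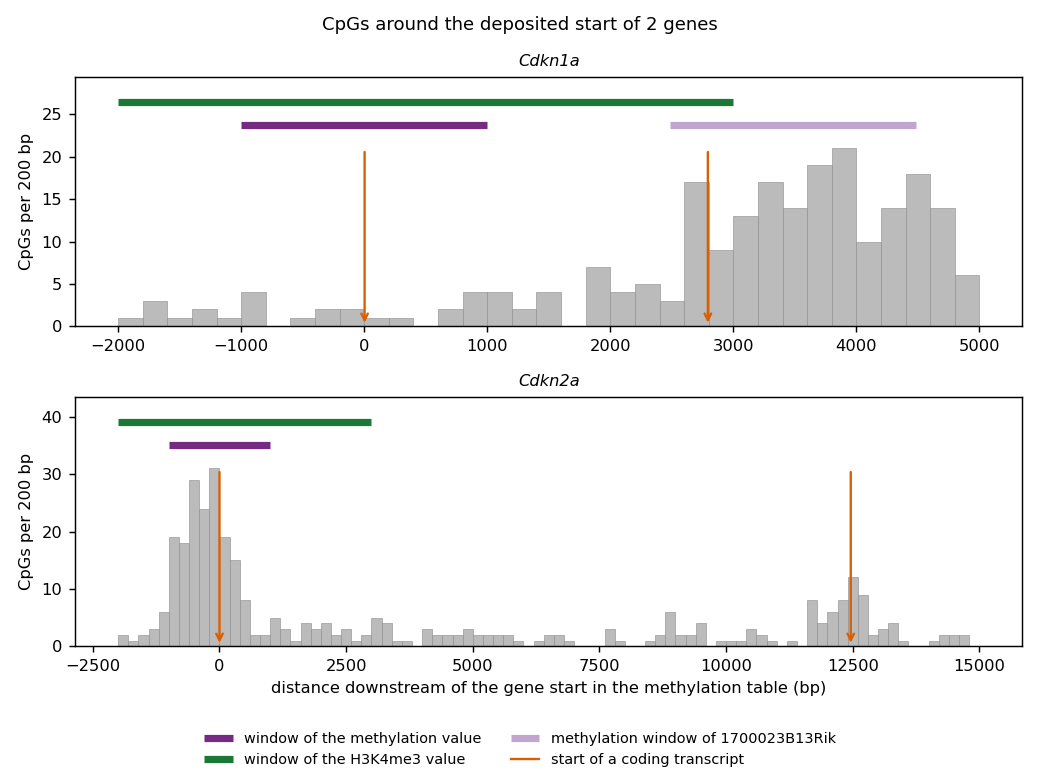
CpGs per 200 bp (bars) against the distance in bp downstream of the start used in the methylation table, for Cdkn1a (top) and Cdkn2a (bottom), with the windows behind the values as thick lines and starts of coding transcripts as arrows. The window of Cdkn1a covers a stretch poor in CpGs and stops short of the start 2793 bp downstream, which the window of 1700023B13Rik covers. A further Cdkn1a start 6924 bp downstream lies beyond the plot.

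The upstream Cdkn1a start is also the place of a p53 element. The windows of 1000 bp on each side of 55348 starts in the methylation table were searched on both strands for the p53 response element, taken as a pair of adjoining decamers with all 4 core letters and at most 1 other mismatch. A match was found at 0.327% of starts. Among the 9 genes only Cdkn1a had one, at chr17:29090928-29090947, 48 bp upstream of the deposited start. It is shown with the core letters in capitals, and it lies within the sequence before the upstream start above.
Cdkn1a p53 element, forward strand: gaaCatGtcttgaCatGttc
The element itself holds 0 CpGs. A match of letters does not show binding, and the absence of one in the other windows says nothing of p53 there.

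The Cdkn1a row was the most methylated of the 9 in every line, and the CpG-rich start of the same gene was not. The fraction at the upstream start was 0.259 in PTC11 and 0.663 in PTC12, and it was 0.355 in TTF1 and 0.826 in TTF4. The 4 lines thus spanned more than the 2 origins did, and the range of 0.567 was wider than that of 80.0% of genes. These values lay near or under those of other starts poor in CpGs, since over 19454 starts with at most 20 CpGs the median was 0.5, 0.657, 0.499 and 0.829 in the same order of lines. The row of 1700023B13Rik, a gene on the opposite strand that starts at chr17:29094461, has a window that takes in the downstream Cdkn1a start 692 bp away. Its fraction was 0.0103 and 0 in PTC11 and PTC12 and 0.0154 and 0.0205 in TTF1 and TTF4, over a window with 146 CpGs. All 4 lines were low there, with a spread of 2.05 percentage points, including the 2 lines that were high at the upstream start. This row was chosen after its values were seen.

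The other 8 genes lay below the median gene in methylation in every line. All had 75 to 206 CpGs within 1000 bp of the start. The median of 6381 starts with over 100 CpGs, the class of Cdkn2a, Cdkn1b, Mdm2, Rb1 and Ccnd1, was 0.0449, 0.0622, 0.0442 and 0.138 in PTC11, PTC12, TTF1 and TTF4. For 9058 starts with 51 to 100 CpGs, the class of Cdkn2b, Cdkn2c and Trp53, it was 0.112, 0.159, 0.116 and 0.308. The median percentile of the 9 genes within a line was 12.4, 4.53, 9.24 and 7.16.

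**Figure D2:**
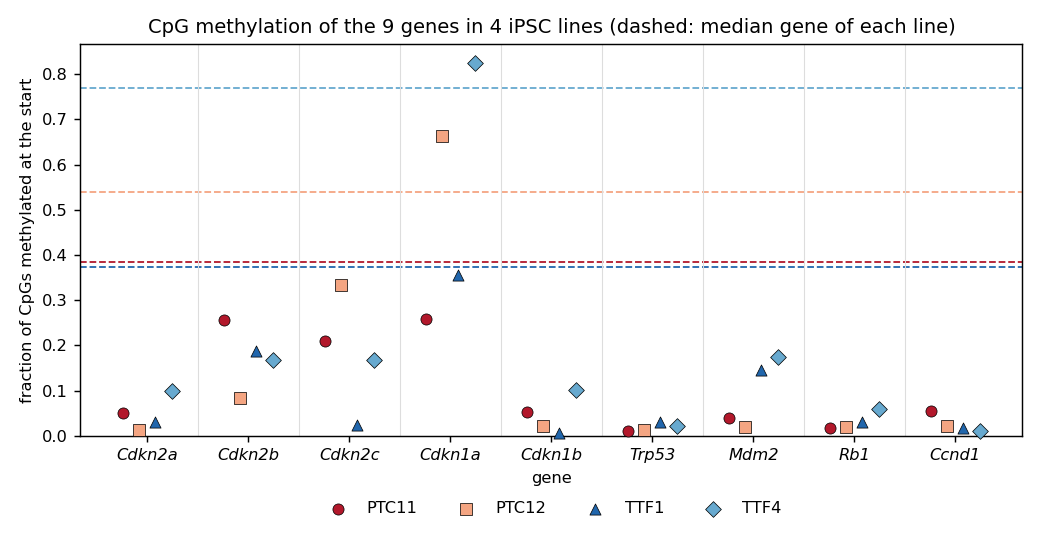
Fraction of methylated CpGs within 1000 bp of the start for each of the 9 genes in PTC11, PTC12, TTF1 and TTF4, 1 point a line, with the median over all genes of each line dashed. Cdkn1a spans 0.259 to 0.826, and no point of the other 8 genes is above 0.333.

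Among the INK4 genes the ARF start of Cdkn2a was low, at 0.0509 and 0.0127 in the PTC lines and 0.0294 and 0.0999 in the TTF lines, and the origins overlapped. Cdkn2b (ENSMUSG00000073802, chr4:89306289-89311032, reverse strand), which lies beside Cdkn2a and encodes another INK4 inhibitor, had 0.257, 0.0842, 0.187 and 0.168 in the same order, again with overlap. Cdkn2c (ENSMUSG00000028551, chr4:109660876-109667189, reverse strand) had 0.209 and 0.333 in the PTC lines and 0.0248 and 0.167 in the TTF lines. Both TTF lines lay below both PTC lines at Cdkn2c. The second coding start of this gene, 1817 bp downstream with 101 CpGs around it, is not in the window. The CIP/KIP gene Cdkn1b (ENSMUSG00000003031, chr6:134920401-134925513, forward strand) had 0.0525 and 0.0216 in the PTC lines and 0.00569 and 0.101 in the TTF lines, which overlapped.

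In the p53 pair, Trp53 (ENSMUSG00000059552, chr11:69580359-69591873, forward strand) was among the least methylated, at 0.0102 and 0.0135 in the PTC lines and 0.0297 and 0.0227 in the TTF lines. The ranges did not overlap, but the whole range of 0.0195 was narrower than that of all but 0.882% of genes. Mdm2 (ENSMUSG00000020184, chr10:117688888-117710758, reverse strand) had 0.0397 and 0.0200 in PTC11 and PTC12, and 0.146 and 0.175 in TTF1 and TTF4. Both TTF lines were above both PTC lines at Mdm2, by 0.131 on average as deposited. Rb1 (ENSMUSG00000022105, chr14:73183673-73325822, reverse strand), with the most CpGs of the 9 around its start (206), had 0.0161, 0.0197, 0.0313 and 0.0583, and its TTF lines were the higher ones. Ccnd1 (ENSMUSG00000070348, chr7:144929931-144939869, reverse strand) had 0.0548, 0.0216, 0.0161 and 0.0110, with both TTF lines below.

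These separations were set against the share of all genes that show them. The TTF lines lay above the PTC lines at 3 of 9 genes (Trp53, Mdm2, Rb1), against 20.5% of 50657 genes, and below at 2 of 9 (Cdkn2c, Ccnd1), against 3.36%. TTF4, the line with the highest value at 75.4% of genes, was highest at 5 of the 9. With the mean of each line taken off its fractions, limma called 0 of the 9 genes at an adjusted p under 0.05, and 0.00395% of all genes, 2 in number. At an unadjusted p under 0.05 it picked 0 of the 9 and 2392 of all. The nearest was Cdkn2c, with a TTF minus PTC difference of -0.262 (SE 0.131, 95% interval -0.525 to 0.0005, unadjusted p = 0.0504, limma adjusted p = 0.9999). For Mdm2 the centred difference was 0.0439 (SE 0.129, 95% interval -0.215 to 0.302), and for Cdkn1a it was 0.0421 (SE 0.159, 95% interval -0.277 to 0.362). A start at 0 in every line would get -0.0871 from the centring alone, since the TTF lines have the higher mean, and 7 of the 9 differences were negative, of which 5 were positive without centring. With 2 lines against 2, the exact permutation test cannot give a two-sided p under 0.33, the value it gave for Cdkn2c and Mdm2.

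H3K4me3 was present at all 9 starts, but not in every library. The libraries fell into a higher and a lower pair that crossed the origins, with a median gene at 4.59 RPKM in PTC12 and 5.01 in TTF1 and at 3.69 in PTC11 and 3.65 in TTF4. Cdkn2a at its ARF start followed that split, with 3.31 in PTC11 and 3.25 in TTF4 against 7.15 in PTC12 and 7.02 in TTF1. Cdkn2c did too, with 3.20 and 4.24 against 7.66 and 8.23. Cdkn2b was the most even INK4 gene, with 4.68, 4.59, 6.52 and 4.24 in the order PTC11, PTC12, TTF1 and TTF4. Its 92.4th percentile in PTC11 was the highest of the 9 there, and its 50.0th percentile in PTC12 was mid-range.

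Cdkn1a had the lowest H3K4me3 value of the 9 in PTC12 and TTF1. Its window takes in both starts but ends at 3000 bp, shortly after the downstream start at 2793 bp. Most of the CpG-rich stretch there lies outside the window. How far the value covers H3K4me3 around the downstream start was not tested. It had 3.10 RPKM in PTC11, 3.16 in PTC12 and 4.24 in TTF1, the 19.0th, 24.1st and 35.7th percentiles of those lines, and no value in TTF4. It was therefore not tested. Cdkn1b was high in each library, with 4.38, 7.53, 8.44 and 4.87 in PTC11, PTC12, TTF1 and TTF4, between the 84.7th and the 96.5th percentile.

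**Figure D3:**
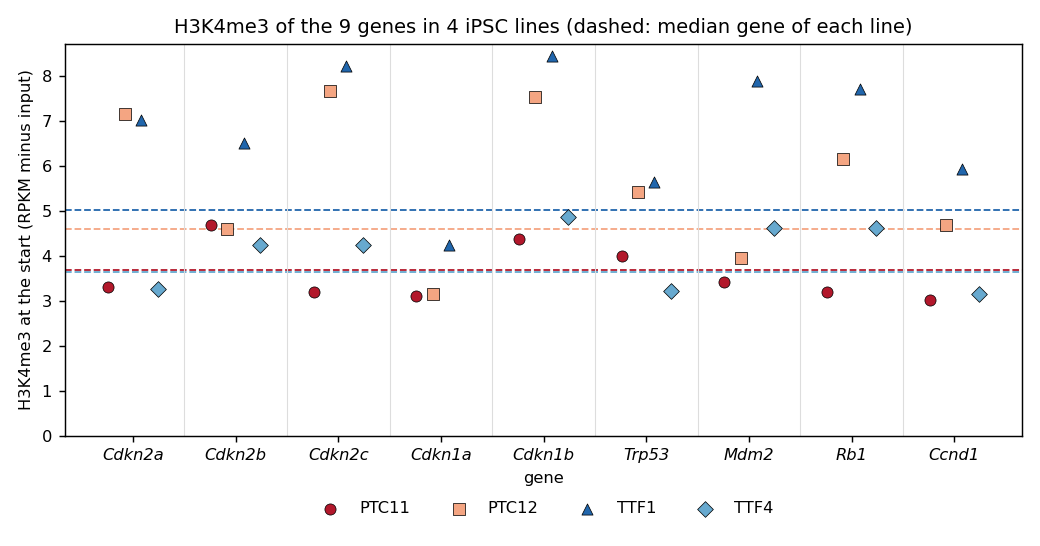
H3K4me3 in RPKM minus input at the start of each of the 9 genes in PTC11, PTC12, TTF1 and TTF4, 1 point a line, with the median gene of each line dashed. TTF1 is the highest of the 4 lines for 7 of the 8 genes with 4 values, and Cdkn1a has no point for TTF4.

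Trp53 had 3.99, 5.42, 5.65 and 3.23 RPKM of H3K4me3, and each origin held a higher and a lower line. Mdm2 had 3.42 and 3.95 in PTC11 and PTC12 but 7.88 and 4.62 in TTF1 and TTF4, which took it from the 34.1st and 37.0th percentile in the PTC lines to the 93.3rd and 88.9th in the TTF lines. In RPKM as deposited it was the only one of 8 tested genes whose TTF lines both lay above the PTC lines. That pattern was shown by 5.04% of 13709 genes, and none of the 8 showed the opposite one, found at 3.17%. By percentile Rb1 also had both TTF lines above, at 92.0 and 88.9 against 23.1 and 80.4 in the PTC lines. Trp53 had both below by percentile, at 62.6 and 28.1 against 67.9 and 67.2. The shares of all genes with these patterns by percentile were not computed. The difference at Mdm2 was 0.59 on the log2(RPKM + 1) scale (SE 0.46, 95% interval -0.30 to 1.49, unadjusted p = 0.194, limma adjusted p = 1, exact permutation p = 0.33). The interval includes 0, and 0.33 is the lowest exact p that 2 lines against 2 can give. This fit left the differences between whole libraries in place. With quantile normalization the difference at Mdm2 was 0.54 (limma unadjusted p = 0.0120), and 0 of all genes were called. As deposited, Mdm2 was also the only gene of the 9 whose TTF lines were the higher ones both in H3K4me3 and in methylation. The share of all genes with both patterns was not computed. With the mean of each line taken off, the methylation difference at Mdm2 was 0.0439 (SE 0.129).

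Rb1 had 3.20, 6.14, 7.71 and 4.61 RPKM, and Ccnd1 had 3.02, 4.70, 5.93 and 3.16, each with TTF1 highest and PTC11 lowest. TTF1 was highest for 7 of the 8 tested genes and for 63.1% of all. limma called 0 of the 8 at an adjusted p under 0.05 and 0.481% of all genes (66), and at an unadjusted p under 0.05 it picked 0 of the 8 and 134 of all. The median difference was 0.16 on the log2 scale for the 8 genes and 0.04 for all genes. For the 7 genes other than Mdm2 the differences lay between -0.09 (Trp53) and 0.35 (Rb1), and the intervals reached 0.76 to 1.15 to each side.

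H3K36me3 over the gene bodies was higher in PTC12 and TTF4 than in PTC11 and TTF1 for most genes, but not Cdkn1b and Ccnd1. Cdkn2a had 1.87 RPKM in PTC11 and 0.632 in TTF1, the lowest value of the 9 there, but 4.74 in PTC12 and 4.02 in TTF4. Its body overlaps both first exons, so that ARF and INK4a cannot be told apart in it. Cdkn2b had 1.38, 5.55, 2.69 and 5.10 in PTC11, PTC12, TTF1 and TTF4, and in TTF1 it stood at the 99.0th percentile, against the 30.4th in PTC11. Cdkn2c had 2.57, 7.12, 0.976 and 3.39, at the 92.6th percentile or above in the PTC lines and at the 31.5th and 31.7th in the TTF lines.

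**Figure D4:**
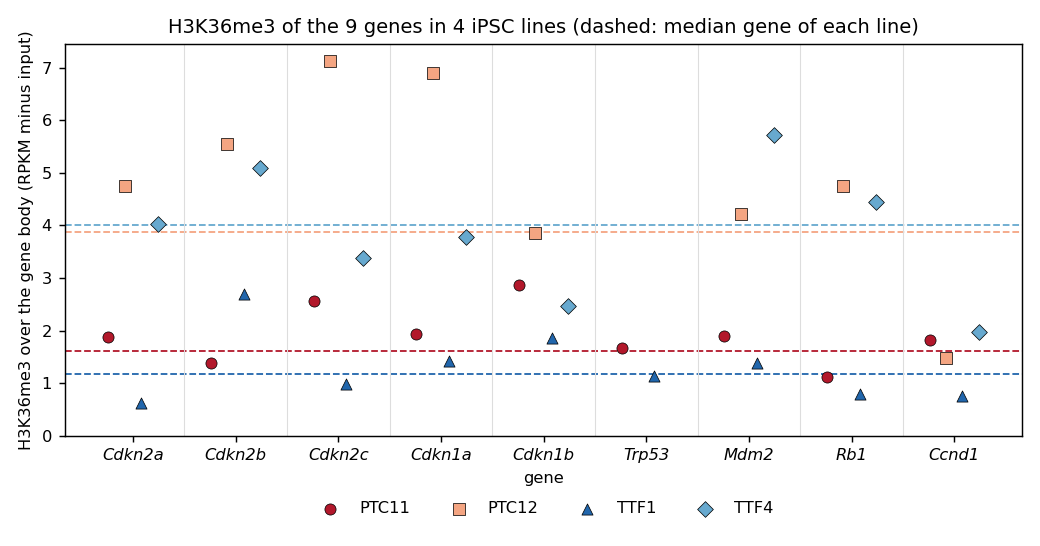
H3K36me3 in RPKM minus input over the body of each of the 9 genes in PTC11, PTC12, TTF1 and TTF4, 1 point a line, with the median gene of each line dashed. PTC12 and TTF4 lie high and PTC11 and TTF1 low for most genes, and Trp53 has points for PTC11 and TTF1 alone.

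Cdkn1a had 1.93, 6.90, 1.42 and 3.78 RPKM of H3K36me3 in PTC11, PTC12, TTF1 and TTF4, so its body carried the mark in TTF4 where its start had no H3K4me3 value. Cdkn1b had 2.87 and 3.86 in the PTC lines and 1.86 and 2.47 in the TTF lines. It was the only gene of the 8 tested whose origins did not overlap in the values as deposited. The TTF lines were below, as at 3.05% of 17039 genes. The difference was -0.46 on the log2(RPKM + 1) scale (SE 1.07, 95% interval -2.56 to 1.64, limma adjusted p = 1, exact permutation p = 0.33). No tested gene of the 9 had its TTF lines above, which 0.452% of genes did. As deposited, Cdkn1b and Ccnd1 varied least between lines. Their ranges of 0.76 on the log2 scale were wider than those of 6.36% and 6.28% of genes. Within each library, Cdkn1b stood at the 97.5th percentile in PTC11, 49.4th in PTC12, 92.5th in TTF1 and 14.2nd in TTF4. By percentile its origins thus overlapped, while Cdkn2c, Cdkn2a and Cdkn1a had both TTF lines below both PTC lines. Cdkn2a stood at 73.6 and 69.7 in the PTC lines and 13.3 and 50.5 in the TTF lines. Cdkn1a stood at 77.1 and 91.7 against 73.6 and 43.5. The share of all genes with that pattern by percentile was not computed.

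Mdm2 had 1.90, 4.22, 1.39 and 5.71 RPKM of H3K36me3, and its highest percentile, the 84.9th, was in TTF4. Rb1 had 1.12, 4.75, 0.797 and 4.45, and Ccnd1 had 1.83, 1.48, 0.761 and 1.98. Ccnd1 was no higher in PTC12 than in PTC11, although PTC12 was high as a whole, and it stood at the 70.2nd percentile in PTC11 but at the 7.16th in PTC12, 18.4th in TTF1 and 9.16th in TTF4. TTF1 was the lowest line for 7 of the 8 genes and for 84.6% of all genes. limma called 0 of the 8 at an adjusted p under 0.05 and 0.112% of all genes (19), and at an unadjusted p under 0.05 it picked 0 of the 8 and 116 of all. The median difference was -0.33 on the log2 scale for the 8 genes and -0.14 for all genes, and the largest was -0.87 at Cdkn2c (SE 1.14, 95% interval -3.11 to 1.36). The intervals reached 1.23 to 2.39 to each side, wider than those of H3K4me3. The fit did not scale the libraries to each other, so differences between whole libraries are part of these intervals. With quantile normalization limma gave an unadjusted p under 0.05 at 1 of the 8 and 502 of all genes, and called 0.

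**Figure D5:**
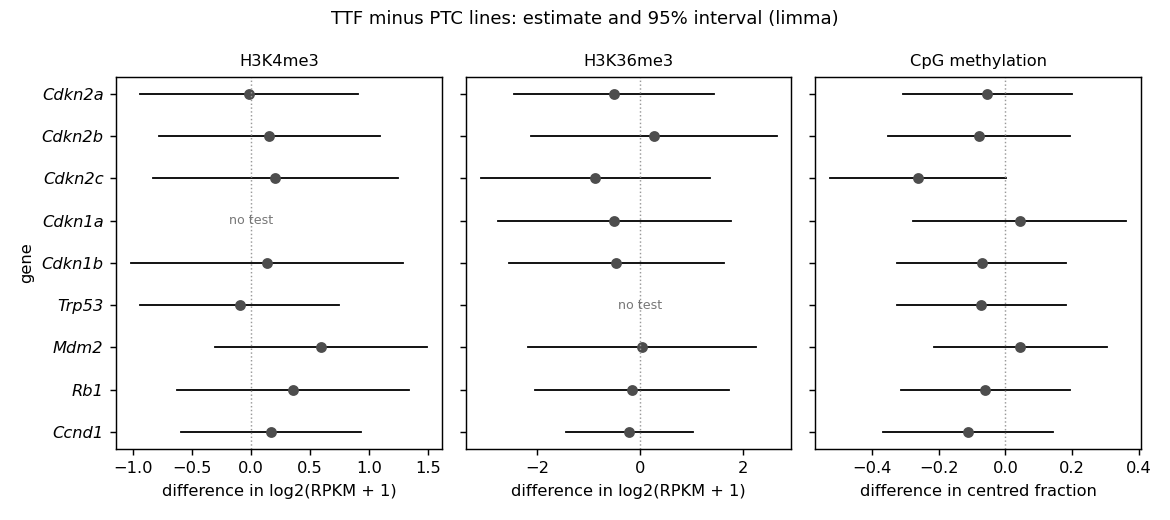
TTF minus PTC difference of each gene (points) with its 95% interval from limma (lines), on the log2(RPKM + 1) scale for H3K4me3 and H3K36me3 and as a centred fraction for CpG methylation. Every interval includes 0, and that of Cdkn2c in methylation ends at 0.0005. Cdkn1a in H3K4me3 and Trp53 in H3K36me3 had no value in every line and were not tested.

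Trp53 shares its start with a neighbour on the opposite strand. Wrap53, which encodes a protein that works with telomerase, starts 104 bp away. Its H3K4me3 values were 3.99, 5.42, 5.46 and 3.89 RPKM in PTC11, PTC12, TTF1 and TTF4, against 3.99, 5.42, 5.65 and 3.23 at Trp53, and its methylation fractions were 0.00965, 0.0151, 0.0282 and 0.0226. The tables thus hold close to 1 measurement for the 2 starts, and H3K4me3 there cannot be given to Trp53 alone. In H3K36me3 Trp53 had 1.66 RPKM in PTC11 and 1.14 in TTF1, and Wrap53 had 1.31 and 1.73. Neither gene had a value in PTC12 or TTF4.

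H3K27me3, a mark of repressed genes that Polycomb proteins are known to place at Cdkn2a, had no value at any of the 9 genes in any of the 4 libraries. Those libraries had a value at 11 to 144 genes of 43984, and both PTC libraries carry the name of PTC11. So sparse a table does not show that the mark is absent from these genes, and no test was made.

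The 7 genes with a value in all 12 columns of the 3 assays were set beside 8772 genes by the mean absolute difference in percentile within a column. The gene most like Ccnd1 was Pcna, which encodes the sliding clamp of DNA replication, at 5.54 percentile points. Cdkn1b was nearest to Derl2 (5.21), Mdm2 to Tyw1 (7.24), Rb1 to Ubtd1 (7.40), Cdkn2a to Gm4675 (8.01), Cdkn2b to Polb (8.49) and Cdkn2c to 4930500M09Rik (8.55). The median distance to all genes was 21.3 to 26.4 points. No 2 of these 7 genes were closer to each other than 14.2 points, the distance between Cdkn2a and Rb1.

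The other genes of the pathway were read from a list of 51, made of CDK inhibitors, cyclins and CDKs, the RB family and E2F factors, p53 regulators and p53 targets. limma called 0 of 45 in H3K4me3, 0 of 47 in H3K36me3 and 0 of 51 in methylation in either direction. Over all genes it called 0.481%, 0.112% and 0.00395%. At an unadjusted p under 0.05 it picked 0, 0 and 2 of the list. Over all genes it picked 134 of 13709, 116 of 17039 and 2392 of 50657. The median differences were 0.03, -0.19 and -0.0455, against 0.04, -0.14 and -0.0100 over all genes. The TTF lines were above the PTC lines at 1 of 45 genes in H3K4me3 (Cdk1, the mitotic kinase), against 5.04% of all genes. In H3K36me3 they were above at 0 of 47, against 0.452%. In methylation they were above at 11 of 51, against 20.5% of all genes, and below at 0, against 3.36%.

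Among the inhibitors, Cdkn1c, an imprinted CIP/KIP gene, had a methylation fraction of 0.0487 and 0.0371 in PTC11 and PTC12, 0.0764 in TTF1 and 0.679 in TTF4, so that 1 line stood apart. It had no H3K4me3 value in PTC11 or TTF4. Cdkn2d, the remaining INK4 gene, had methylation fractions of 0.0369, 0.0244, 0.0249 and 0.00568. Among the D-type cyclins, Ccnd3 had 0.0126, 0.147, 0.0395 and 0.748, again with TTF4 alone high, while Ccnd2 had 0.0495, 0.0161, 0.0302 and 0.0731. TTF4 is the line with the highest methylation over all genes, and the part of that shift in these values was not tested.

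The cyclin D kinases differed in H3K4me3, where Cdk4 had 4.73, 8.54, 7.29 and 6.43 RPKM and Cdk6 had 3.09, 5.84, 6.01 and 3.52, each with overlap between origins. The pocket proteins akin to Rb1 had methylation fractions of 0.0107, 0, 0.0275 and 0.139 (Rbl1) and 0.111, 0.0951, 0.168 and 0.187 (Rbl2). E2f1, which encodes an E2F transcription factor, had 0.0490, 0.0499, 0.0572 and 0.144. All 3 had their TTF lines above as deposited, as 20.5% of all genes did and as 4 of the 10 genes of the RB family and E2F did, but their centred differences were -0.00924 (Rbl1), -0.0131 (Rbl2) and -0.0359 (E2f1). Mdm4, the partner of Mdm2 in restraining p53, was the more methylated of that pair, at 0.359, 0.630, 0.524 and 0.782, and its H3K4me3 was 3.78, 3.94, 4.30 and 2.51 RPKM. The p53 targets Bax, which opens mitochondria in apoptosis, and Ccng1, which encodes cyclin G1, had methylation fractions of 0 to 0.276 and 0 to 0.0899, with the highest in TTF4 and overlap between origins.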

How the data were processed

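The authors aligned ChIP-seq reads to mm10, called peaks per library against input with MACS2 2.0.10, counted reads in peaks with bedtools 2.17.0, took off the RPKM of the input, and deposited for each gene the RPKM averaged over its peaks. Genes lacking such a peak are blank, and some genes are listed at 0. They deposited CpG methylation as a fraction per gene, from nanopore reads aligned with minimap2 2.17-r941 and called with Nanopolish, averaged over sliding windows around the start. All 16 libraries were placed by their titles, and H3K27me3 was described only.

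Genes measured in all 4 lines were fitted with limma 3.58.1 in R 4.3.3 (lmFit, eBayes with a trend), TTF minus PTC, on log2(RPKM + 1) or on the fraction minus the mean of the line, adjusted over every gene fitted by Benjamini-Hochberg, at a threshold of 0.05. An exact two-sided permutation test over lines stood beside it. Nothing in the labels pairs lines across origins. Starts and CpGs came from GENCODE and GRCm38.p6, and promoters from RefSeq. Remaining work was done in Python 3.11.15 (pandas 2.3.3, matplotlib 3.10.9).

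The 9 genes, the pathway list, the marker lists and the tests were chosen with earlier results of these data known. Genes named by rule were the 9, pathway genes with an adjusted p under 0.05, 12 pathway genes named whatever their values, genes starting within 3000 bp of a member and the nearest gene in percentile profile. 1700023B13Rik, Cdk1, Pmaip1 and Fas were chosen after their values were seen. Alternatives varied the pseudocount, scaling, centring, missing values, a filter on low values, the variance trend and the lines.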

Additional observations from a re-analysis of the deposited data

How the results depend on the processing

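Of the 9 genes, 0 were called in any assay under any of the alternatives run, while the number called among all genes depended on the setting. In H3K4me3 it was 66 in the fit described, 102 with a pseudocount of 0.1, and 0 with quantile normalization, with missing values set to 0, with a mean of at least 1 RPKM, and without a variance trend (limma unadjusted p under 0.05 at 318, 128, 14 and 3 genes). In H3K36me3 it was 19, then 44 with a pseudocount of 0.1 and 0 under the same other alternatives (unadjusted at 502, 24, 4 and 4 genes). In methylation it was 2, then 52 with median centring, 1 without a trend, and 0 without centring or with quantile normalization (unadjusted at 1006 and 2438 genes). With each line left out in turn it ran from 59 to 108, from 1 to 31 and from 0 to 1020, where the lone line of an origin is assumed to vary like the others. The lines that moved it by over 1.5 times were TTF1 in H3K4me3 (108 without it), PTC11, TTF1 and TTF4 in H3K36me3 (31, 8 and 1), and each line in methylation (5 without PTC11, 0 without PTC12 with 1786 at an unadjusted p under 0.05, 1020 without TTF1 and 227 without TTF4). The causes were not tested.

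The direction of most members was not stable. The H3K36me3 difference reversed to -0.00018 at Mdm2 with a pseudocount of 0.1 and to 0.071 at Rb1 with quantile normalization. Without centring, methylation differences turned positive at Cdkn2a (0.0328), Cdkn2b (0.00715), Cdkn1b (0.0164), Trp53 (0.0144) and Rb1 (0.0269), and with quantile normalization at Cdkn2a (0.00241), Trp53 (0.0183) and Rb1 (0.0190). With each line left out in turn, the differences that changed sign ran as follows. In H3K4me3, on the log2 scale, they were Cdkn2a -0.48 to 0.44, Cdkn2b -0.11 to 0.42, Cdkn2c -0.32 to 0.73, Cdkn1b -0.21 to 0.48, Trp53 -0.42 to 0.23, Rb1 -0.031 to 0.73 and Ccnd1 -0.20 to 0.54. In H3K36me3 they were Cdkn2a -1.32 to 0.31, Cdkn2b -0.46 to 1.00, Cdkn1a -1.22 to 0.21, Mdm2 -0.70 to 0.79, Rb1 -0.96 to 0.64 and Ccnd1 -0.59 to 0.17. In methylation they were Cdkn2a -0.154 to 0.0458, Cdkn2b -0.225 to 0.0647, Cdkn1a -0.105 to 0.189, Cdkn1b -0.158 to 0.0168, Trp53 -0.211 to 0.066, Mdm2 -0.0768 to 0.165, Rb1 -0.182 to 0.0616 and Ccnd1 -0.25 to 0.0261.

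The differences that kept their sign with every line left out were Mdm2 in H3K4me3, Cdkn2c and Cdkn1b in H3K36me3, and Cdkn2c in methylation. At all of these but Cdkn2c in H3K36me3 the origins do not overlap, which fixes the sign. An unadjusted p under 0.05 was reached by Mdm2 in H3K4me3 (0.0120) and Cdkn2c in H3K36me3 (0.00838) and methylation (0.00828) with quantile normalization, by Mdm2 in methylation without centring (0.0406), and by Cdkn2c in methylation without TTF1 (0.00560). The limma adjusted p of those fits was 0.142 to 1. Other settings raised the p of Cdkn2c in methylation. Its difference was -0.262 in the fit described, -0.175 without centring (limma unadjusted p = 0.171) and -0.285 with median centring (limma unadjusted p = 0.118). No paired analysis was possible because the lines of the origins share no number and no label pairs them.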

Other observations

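Among the p53 targets of the pathway list, Pmaip1, which encodes the apoptosis factor Noxa, had a methylation fraction of 0.954 in TTF4, against 0.0309 and 0.0847 in PTC11 and PTC12 and 0.0787 in TTF1. Its H3K4me3 was lowest in that line, at 2.13 RPKM against 3.42 to 4.53 in the others, while its H3K36me3 was highest there, at 7.56 RPKM against 1.56 to 5.04. The methylation difference of 0.371 (SE 0.148, unadjusted p = 0.0153) had a limma adjusted p of 0.862. Fas, the death receptor that p53 induces, had fractions of 0.225 and 0.255 in the PTC lines and 0.570 and 0.727 in the TTF lines. That difference was 0.321 (SE 0.15, unadjusted p = 0.0370, limma adjusted p = 0.9999). These genes were picked for their values, and TTF4 is the most methylated line over all genes. Among all genes with 4 values, TTF4 was also the lowest line in H3K4me3 at 47.0% and the highest in H3K36me3 at 48.4%.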
